A study of Homo sapiens and Mus musculus with 33 samples.

Results

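The 10 genes BBC3, BAX, BAK1, BCL2, BCL2L1, MCL1, PMAIP1, BCL2L11, BID and BAD, all of the BCL2 family of apoptosis regulators, were taken by symbol from the tables of this series, in which histone H3 lysine 18 crotonylation (H3K18cr) and acetylation (H3K18ac) were mapped by ChIP-seq beside RNA-seq. They were 10 of 35805 genes in the RNA table of HCT116 cells and 10 of 25965 genes in that of mouse colon epithelium. Every called peak in a member gene or within 2 kb of it was taken with it, which gave 23 of 40266 peaks in HCT116, 21 of 30338 H3K18cr peaks in the colon and 20 of 27035 H3K4me3 peaks in the colon. HCT116, a human colorectal carcinoma line, was grown for 18 h with 5 µM MS275 (entinostat), an inhibitor of class I histone deacetylases, or with its solvent DMSO. RNA was sequenced from 4 libraries of each treatment, each mark from 3 libraries of each treatment by the labels (the methods state fewer for H3K18cr), and input chromatin from 1 library of each. The untreated mouse libraries came from colon epithelium of male C57BL/6 mice, with 3 libraries for RNA, 2 for H3K18cr, each with an input, and 3 for H3K4me3 with 1 input. HCT116 is a single tumour line, and colons of several mice were pooled for ChIP, so the colon ChIP replicates may share animals.

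Proteins of the BCL2 family decide whether the outer mitochondrial membrane stays intact. BAX and BAK1 open it and release cytochrome c, and the guardians BCL2, BCL2L1 (BCL-XL) and MCL1 hold them back. The BH3-only proteins BBC3 (PUMA), PMAIP1 (NOXA), BCL2L11 (BIM), BID and BAD set the balance by binding to guardians, and some also to BAX or BAK1. Acetylation and crotonylation of H3K18 are found at the starts of active genes, as is H3K4 trimethylation, and class I histone deacetylases can remove both acyl groups.

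The HCT116 RNA libraries held 35608533 to 53415604 counts, the colon RNA libraries 8166406 to 10707901, and the HCT116 ChIP libraries 2236551 to 5730094 reads in peaks. Both RNA libraries numbered 3 stood apart from the other 6 on the first principal component (37.6% of the variance), at -118 for DMSO and -35.5 for MS275 against -12.7 to 49.9, so calls in RNA are given with and without that pair. Levels are given in CPM, read counts per library size, plain for these marker sums and in the colon and TMM-scaled for single genes in HCT116. Over 9 epithelial marker genes the summed level was 3775 to 5351 CPM in DMSO and 4870 to 5851 in MS275. CDX1 was at 0 in both of these groups. In the colon the sum was 9291 to 10923 CPM. The 8 immune markers, of which CD3E was at 0 in DMSO, summed to 5.65 to 12.2 CPM in HCT116 and 28.5 to 49.5 in the colon, and the 8 stromal markers to 11.6 to 13.9 CPM in DMSO, 23.5 to 25.8 in MS275 and 40.6 to 63.4 in the colon.

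All 10 members had counts in every HCT116 library and all passed the filter on low counts. Per kilobase of exon, the DMSO cells held most RNA for BCL2L1, the guardian BCL-XL, at 66.9 ± 9.24 CPM per kb (SD, n = 4). Then followed MCL1, a guardian known for its short-lived protein, at 26.2 ± 4.62, the effector BAX at 25.7 ± 5.69, and the BH3-only genes BAD at 25.5 ± 11.4 and PMAIP1 at 25.5 ± 4.25. These 4 neighbours overlapped in range, whereas the lowest BCL2L1 library (54.0) was above the highest of MCL1 (29.8). BID at 13.8 ± 2.31, the effector BAK1 at 11.4 ± 5.13 and BBC3 at 11 ± 2.90 CPM per kb came next, again with ranges that overlapped one another, and the highest BAK1 (19.0) and BID (16.2) libraries lay above the lowest of BAD (15.9). BCL2L11 reached 2.99 ± 0.610 and BCL2, the founding guardian, 0.296 ± 0.0641 CPM per kb, which put BCL2 at percentile 10.0 of the genes tested. Thus the guardians were found at both ends of the order, with BCL2L1 at percentile 95.4. GGNBP1 lies antisense to BAK1, GPR137 to BAD, BCL2L1-AS1 and ABALON to BCL2L1, and MIR4435-2HG to BCL2L11. MIR3190 lies antisense to BBC3 and an unnamed gene to BCL2. As the use of strand in the counting is not stated, the shares of these partners in the counts cannot be told apart.

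The first question was whether RNA of the family differed after MS275. BBC3, whose product PUMA binds all guardians, was measured at 24.1, 46.6, 33.8 and 36.2 CPM in DMSO replicates 1 to 4. In MS275 replicates 1 to 4 it was measured at 10.8, 23.8, 25.7 and 29.2 CPM. Each MS275 library was lower than the DMSO library of the same number, but the groups overlapped. The mean was 35.2 ± 9.24 CPM in DMSO and 22.4 ± 8.05 in MS275 (SD, n = 4), a log2 change of -0.65 with SE 0.31, which did not pass edgeR's quasi-likelihood test (Benjamini-Hochberg adjusted p = 0.763). With the replicate number as a block the change was -0.70, SE 0.15, and passed (edgeR adjusted p = 0.00865). In bulk RNA, fewer cells with a transcript and less of it per cell cannot be told apart. This call was kept without pair 3 (-0.81, edgeR adjusted p = 0.00405) and without pair 4 (0.00718), and was lost without pair 1 (-0.56, edgeR adjusted p = 0.0540) and without pair 2 (-0.63, 0.0630).

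BID, which is cleaved by caspase-8 and carries the death receptor signal to mitochondria, was measured at 67.8, 54.3, 71.6 and 50.6 CPM in DMSO. In MS275 its values were 45.4, 39.8, 54.7 and 34.7 CPM. Again every pair was lower after MS275, and only the highest MS275 library lay within the DMSO range. From 61.1 ± 10.2 to 43.7 ± 8.59 CPM (SD, n = 4), the log2 change was -0.48 with SE 0.20 (edgeR adjusted p = 0.688). With the block it was -0.49, SE 0.09, and BID fell (edgeR adjusted p = 0.00379), as it also did with any 1 of the pairs left out (largest edgeR adjusted p = 0.0290).

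No other member passed either fit. BCL2L11, whose product BIM binds all guardians and can activate BAX, was at 24.0, 19.9, 14.5 and 22.1 CPM in DMSO and at 27.3, 31.5, 18.2 and 26.9 in MS275, higher in 4 of 4 pairs with overlapping groups. Its log2 change was 0.37 with SE 0.23, and with the block 0.37 with SE 0.13 (edgeR adjusted p = 0.866 and 0.0717). Among the guardians, MCL1 was also higher in 4 of 4 pairs, with 178, 167, 121 and 185 CPM in DMSO and 199, 183, 145 and 198 in MS275. The MCL1 change was small, 0.15 on the log2 scale with SE 0.18 (edgeR adjusted p = 0.946, and 0.122 with the block). BCL2 was higher in 4 of 4 pairs as well, from a mean of 3.73 ± 0.809 to 4.52 ± 0.812 CPM (SD, n = 4), with only 93 to 244 counts per library behind it (edgeR adjusted p = 0.567 with the block). BCL2L1 was at 281 ± 38.8 CPM in DMSO and 275 ± 18.2 in MS275, a log2 change of -0.03 with SE 0.15.

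The effectors did not separate the treatments. BAX was at 67.2, 64.8, 84.9 and 49.0 CPM in DMSO and at 45.1, 57.1, 109 and 44.4 in MS275, and BAK1 at 20.7, 19.6, 42.1 and 18.1 CPM in DMSO and 19.2, 21.3, 33.8 and 17.1 in MS275. Their log2 changes were -0.06 and -0.14, with SE 0.30 and 0.31. PMAIP1, whose product NOXA binds MCL1, changed by 0.09 with SE 0.21, and BAD, whose product is held inactive by phosphorylation, by -0.14 with SE 0.38. Without both libraries numbered 3 the log2 changes were -0.31 for BAX, -0.03 for BAK1, -0.29 for BAD and 0.13 for PMAIP1, and with the block and without pair 3 the smallest edgeR adjusted p of these 4 was 0.0595, for BAX. The libraries numbered 3 were the highest of both groups for 4 members, BAX, BAK1, BID and BAD, and the lowest of both groups for 4, BCL2, MCL1, PMAIP1 and BCL2L11.

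Over the family, 0 of 10 members passed edgeR without the block, where 0.00668% of all 14961 genes tested passed, 1 member (BID) had an unadjusted p under 0.05, and DESeq2 also called 0 of 10. With the block 2 of 10 members passed, both lower, where 14.4% of all genes passed, 7.83% higher and 6.55% lower. Without pair 3 it was again 2 of 10, against 17.2% of all genes. The groups overlapped for all 10 members. The median log2 change of the members was -0.05 without the block and -0.06 with it, and that of all genes was 0.01 in both. By role, 2 of 5 BH3-only genes, 0 of 3 guardians and 0 of 2 effectors passed with the block.

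**Figure D1:**
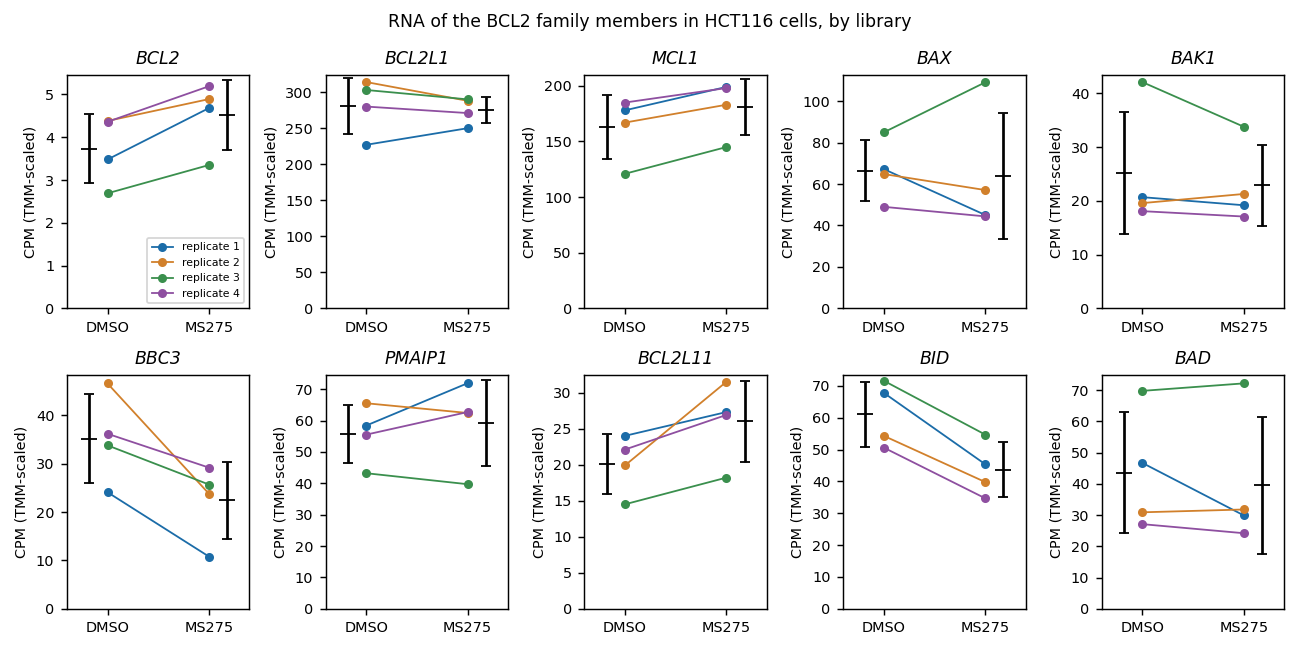
RNA level of the 10 genes in HCT116 in CPM, 1 panel per gene, with DMSO and MS275 on the x axis, lines joining libraries of the same number and bars giving mean ± SD (n = 4). In BBC3 and BID every line goes down, in BCL2, MCL1 and BCL2L11 every line goes up, and in all panels the groups overlap.

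The genes around the family in the pathway were looked at the same way, and none passed without the block. With it 14.4% of all genes passed, which the shares of the first 2 lists below were near. Of 10 tested other members of the BCL2 family, 1 was lower with the block, the guardian BCL2L2 (log2 change -0.57, SE 0.13, edgeR adjusted p = 0.0145). Of 16 genes for caspases and the apoptosome, APAF1, the scaffold that activates caspase-9, was higher (0.61, SE 0.17, edgeR adjusted p = 0.0315) and CASP8, the protease that cleaves BID, was lower (-0.57, SE 0.11, edgeR adjusted p = 0.00605). Of 6 tested inhibitors of apoptosis, BIRC3 (1.47, SE 0.36) and BIRC6 (0.37, SE 0.09) were higher and XIAP, which blocks effector caspases, was lower (-0.31, SE 0.09), with edgeR adjusted p = 0.0176, 0.0137 and 0.0404. Without pair 3 the call of APAF1 was lost (edgeR adjusted p = 0.0646). BID and CASP8 were thus lower in the same fit, each in 4 of 4 pairs.

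In HCT116 chromatin each of the 10 genes had a peak within 1 kb of its start. Where a gene had more than 1, the peak with the highest mean over the ChIP libraries was taken as its start peak, and this left 13 further peaks in or near the genes. A single peak list on GRCh38 serves all HCT116 libraries, so each mark is measured over the same regions. BBC3, MCL1, PMAIP1 and BID had their start peak alone, and BCL2L1 had the most, 7, of which the one over its start was 31950 bp wide. The start peak of BBC3, chr19:47225101-47234250, covered 9150 bp on both sides of the start, mostly within the gene, and that of BAK1, chr6:33578701-33580950, covered 2250 bp over the start. The BAD start peak, chr11:64282951-64287150, also held the start of GPR137 on the other strand, and 2 of the 13 further peaks lay at starts of neighbours, at FTL beside BAX and at GPR137 near the 3' end of BAD. BCL2L11 was the only gene with a choice of start peak. The stronger peak, taken here, began 173 bp past the start in the tables, and a weaker one, chr2:111116251-111119400, overlapped that start and lay mostly upstream of it.

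The promoters under these start peaks, 250 bases up to the RefSeq start (GRCh38.p14), were of CpG-poor and CpG-rich kinds, which is shown here for BBC3 and BID, the genes whose RNA fell with the block, and for BCL2L11 and BAD, whose start peaks fell in both marks while their RNA did not pass. Each is printed 5' to 3' on the gene's own strand, with capitals marking the GC box, GGGCGG or CCGCCC on the other strand: BBC3 from chr19:47232668-47232917 (minus strand), BID from chr22:17774666-17774915 (minus strand), BCL2L11 from chr2:111120664-111120913 (plus strand) and BAD from chr11:64284705-64284954 (minus strand).
BBC3: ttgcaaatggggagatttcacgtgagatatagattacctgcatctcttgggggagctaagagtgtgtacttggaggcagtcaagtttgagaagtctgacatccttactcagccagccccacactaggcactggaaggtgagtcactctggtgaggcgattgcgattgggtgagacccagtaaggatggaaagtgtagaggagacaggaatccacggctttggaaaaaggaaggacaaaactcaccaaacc
BID: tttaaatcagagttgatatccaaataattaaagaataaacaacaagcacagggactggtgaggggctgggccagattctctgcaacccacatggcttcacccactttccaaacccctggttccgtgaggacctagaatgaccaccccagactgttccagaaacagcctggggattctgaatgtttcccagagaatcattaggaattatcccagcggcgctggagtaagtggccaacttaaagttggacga
BCL2L11: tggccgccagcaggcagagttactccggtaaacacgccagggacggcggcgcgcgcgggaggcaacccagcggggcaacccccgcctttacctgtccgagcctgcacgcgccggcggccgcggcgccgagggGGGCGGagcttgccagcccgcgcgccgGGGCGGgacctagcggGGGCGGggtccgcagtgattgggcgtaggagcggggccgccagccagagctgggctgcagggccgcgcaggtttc
BAD: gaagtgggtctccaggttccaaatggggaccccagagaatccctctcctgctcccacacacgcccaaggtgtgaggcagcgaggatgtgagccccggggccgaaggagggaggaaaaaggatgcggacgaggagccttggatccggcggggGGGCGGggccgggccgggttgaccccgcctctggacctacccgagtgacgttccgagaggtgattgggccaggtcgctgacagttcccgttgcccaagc

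BBC3 and BID had 4 CpG dinucleotides each and no GC box in this window, whereas BCL2L11 had 34 CpG and 3 GC boxes and BAD had 17 CpG and 1 GC box. PMAIP1, not printed, had the most of the family, 36 CpG and 4 GC boxes. These features did not follow the RNA results, since BAK1 had 5 CpG, and BCL2 and BCL2L1 had 24 and 17 CpG and no GC box, and none of the 3 passed in RNA. RefSeq gave 5 promoters for BID and 2 each for BAD and BCL2L1, of which only the nearest to the start used for the peaks was read. The RefSeq promoter table used here matched 9 of the 10 genes, all but MCL1. Their median was 17.0 CpG, against 11 over all 35116 human promoters. GC boxes were found in 5 of 9 members and in 42.6% of all promoters, CCAAT (or ATTGG) in 5 of 9 and 32.0%, the E-box CACGTG in 2 of 9 (BBC3 and BAX) and 6.34%, and TATAAA (or TTTATA) in 1 of 9 (BCL2L1) and 10.7%. The BBC3 and BID starts in RefSeq and in the tables differed by 99 and 105 bp, and that of BCL2L11 by 1536 bp, so these windows are not exactly the same distance from the start used for the peaks. These letter matches describe the windows only.

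The next question was how H3K18cr at these genes differed after MS275. Values are reads per peak as deposited, scaled to library size by the authors, so every change is relative to the rest of the library and not an amount per cell. The start peak of BBC3 held 918, 830 and 823 scaled reads in DMSO replicates 1 to 3 and 487, 482 and 558 in MS275, with no overlap. From 857 ± 53 to 509 ± 42.9 (SD, n = 3) it fell by 0.75 on the log2 scale (SE 0.15, limma adjusted p = 0.000341), or by 0.09 when the change of the single input was subtracted. MCL1 held 381, 369 and 306 scaled reads in DMSO and 178, 191 and 205 in MS275. It fell the most of all start peaks of the family before input subtraction (-0.88, SE 0.16, limma adjusted p = 0.000178). With the input change subtracted MCL1 was at -0.83 and BCL2L11 at -1.14.

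The CpG-rich starts of PMAIP1 and BCL2L11 fell to much the same extent. PMAIP1 went from 386, 379 and 394 scaled reads to 188, 232 and 244 (-0.81, SE 0.16, limma adjusted p = 0.000321), and BCL2L11 from 324, 322 and 280 to 181, 200 and 174 (-0.74, SE 0.16, limma adjusted p = 0.000815). In both genes the groups did not overlap. The weaker peak over the BCL2L11 start did not share this, with 135, 112 and 80 scaled H3K18cr reads in DMSO and 115, 113 and 83 in MS275 (-0.06, SE 0.20, limma adjusted p = 0.895), nor did it pass in H3K18ac (-0.12, SE 0.25, limma adjusted p = 0.838). BAD (-0.76, SE 0.16) and BCL2 (-0.79, SE 0.19) fell too, with limma adjusted p = 0.000649 and 0.00207, and the call of BCL2 was lost in DESeq2 (-0.53, DESeq2 adjusted p = 0.0593). The start peaks that did not pass were those of BAX (-0.37), BAK1 (-0.29), BCL2L1 (-0.37) and BID (-0.39), with SE of 0.19, 0.19, 0.15 and 0.18 and limma adjusted p = 0.186, 0.323, 0.0773 and 0.121. BAX held 154, 138 and 91 scaled reads in DMSO and 101, 93 and 95 in MS275, so that its lowest library was in DMSO. BID held 187, 153 and 122 in DMSO and 109, 113 and 125 in MS275, with overlap at a single library of each group.

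Over the family, 7 of 23 H3K18cr peaks were lower and 0 higher, where 23.9% of all 39011 peaks tested passed and 23.7% were lower. Of the 10 start peaks 6 were lower, against 55.5% of all 12774 peaks within 1 kb of a coding start, and of the 13 further peaks 1, the peak at the second GPR137 start in BAD, against 8.57% of all peaks away from starts, although 3 of the 13 lay at a start, those at FTL, GPR137 and BCL2L11. The family's share was therefore near the background of its kind of peak. The median log2 change of the start peaks was -0.75, and that of all start peaks -0.54. The groups did not overlap in 11 of 23 peaks, and in 33.6% of all peaks. Without DMSO replicate 3, which was the lowest DMSO library at 9 of the 10 starts, 11 of 23 passed, where 12643 of all 39210 peaks did. Among the 11 were BAX (-0.59, limma adjusted p = 0.00565), BCL2L1 (-0.41, 0.020) and BID (-0.55, 0.00897). Without any other library 6 to 8 of 23 passed, where 5969 to 9200 of all peaks did. BCL2L1 also passed without MS275 replicate 3 (-0.51, limma adjusted p = 0.000827).

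On the deposited scale the median of all peaks moved by -0.21 for H3K18cr and -0.19 for H3K18ac, whereas with TMM scaling over the peaks it moved by 0.04 and 0.06. Relative to that median the BBC3 start peak changed by -0.55 in H3K18cr and -0.70 in H3K18ac. With TMM and edgeR the H3K18cr split of the family was 6 lower and 2 higher, where 14.0% of all peaks passed. The same 6 start peaks were lower (BBC3 -0.51, edgeR adjusted p = 0.00418), the BAD peak at GPR137 no longer passed (0.108), and a peak over the 3' end of BCL2L1 (0.56, edgeR adjusted p = 0.0227) and one in its intron (0.74, edgeR adjusted p = 0.0177) were higher.

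**Figure D2:**
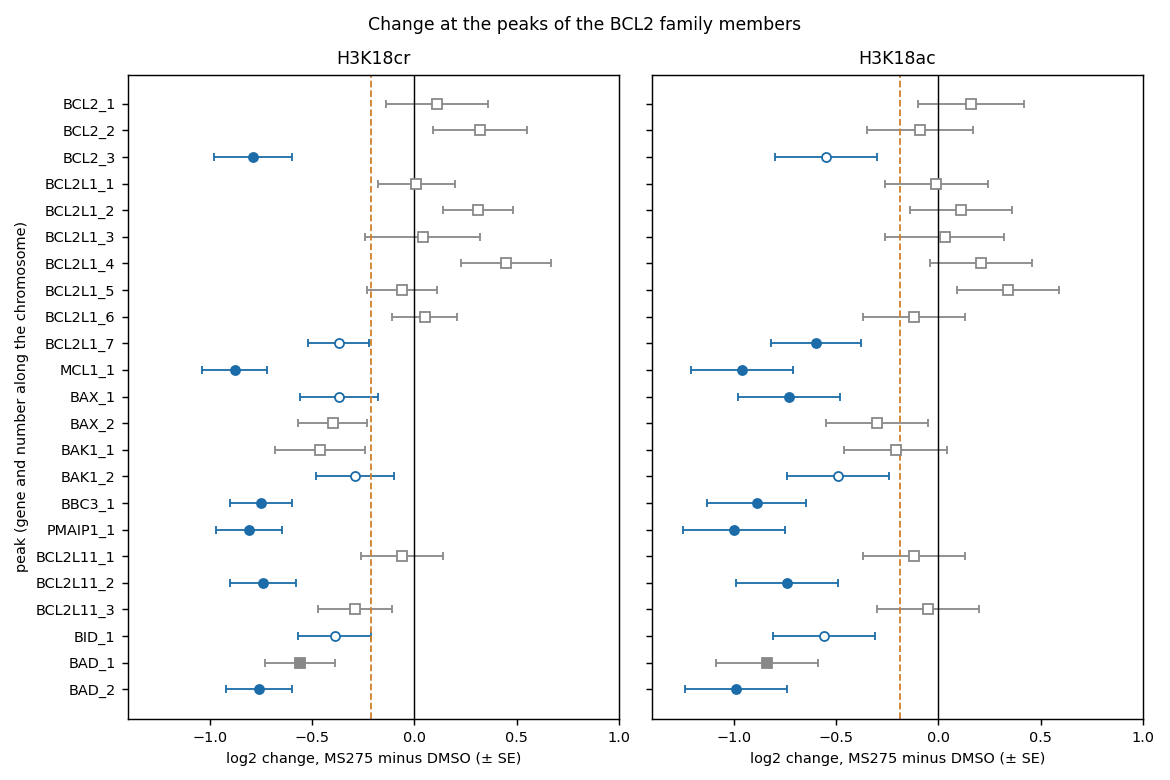
Log2 change (MS275 minus DMSO, x axis) of the 23 HCT116 peaks of the family with SE (n = 3 per group), in H3K18cr and H3K18ac. Blue circles are gene start peaks, grey squares other peaks, filled symbols passed the limma test, and the dashed line is the median of all peaks (-0.21 and -0.19); the start peaks all sit left of 0, and the further peaks range from -0.56 to 0.45 in H3K18cr.

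In H3K18ac the starts of BBC3, MCL1, PMAIP1, BCL2L11 and BAD were lower too, with more spread between libraries. BBC3 held 748, 849 and 1079 scaled reads in DMSO and 575, 417 and 444 in MS275, a fall from 892 ± 169 to 479 ± 84.4 (SD, n = 3; log2 change -0.89, SE 0.24, limma adjusted p = 0.00363). PMAIP1 held 332, 418 and 554 in DMSO and 249, 193 and 199 in MS275 (-1.0, SE 0.25, limma adjusted p = 0.00165), and MCL1 271, 363 and 526 in DMSO and 239, 158 and 188 in MS275 (-0.96, SE 0.25, limma adjusted p = 0.00277). The groups did not overlap in these 3 genes, but the highest DMSO library was always replicate 3 and the highest MS275 library always replicate 1. BAD (-0.99), BCL2L11 (-0.74), BCL2L1 (-0.60) and BAX (-0.73) passed as well, with SE of 0.25, 0.25, 0.22 and 0.25 and limma adjusted p = 0.00188, 0.0266, 0.0409 and 0.0254. Without limma's trend the calls of BCL2L11, BCL2L1 and BAX were lost (limma adjusted p = 0.0581, 0.125 and 0.0803). In DESeq2 the call of BAX was lost too (DESeq2 adjusted p = 0.132). BAX overlapped between groups, with 105, 101 and 180 scaled reads in DMSO and 105, 56 and 71 in MS275. BCL2 (-0.55), BAK1 (-0.49) and BID (-0.56) did not pass (limma adjusted p = 0.122, 0.182 and 0.118).

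In all, 8 of 23 H3K18ac peaks of the family were lower and 0 higher, where 17.1% of all 39065 peaks passed and 16.9% were lower. Of the 10 start peaks 7 were lower, against 43.6% of all start peaks, and of the 13 further peaks 1, again the BAD peak at GPR137, against 4.24%. The median of the start peaks was -0.73, that of all start peaks -0.60, and the groups did not overlap in 8 of 23 peaks and in 26.8% of all peaks. This count rested on single libraries. It was 0 of 23 without MS275 replicate 2 (limma, 6 with an unadjusted p under 0.05) and 1 without MS275 replicate 3. It was 4 without DMSO replicate 2 or without DMSO replicate 3, and 10 without DMSO replicate 1. The calls over all peaks moved likewise, to 1450, 1918, 3059, 3788 and 9342 in the same order of fits, against 6685 with all libraries. DMSO replicate 3 was the highest DMSO library at 10 of the 10 starts and at 70.7% of all peaks, and MS275 replicate 1 the highest MS275 library at 9 of the 10 starts and at 68.9% of all peaks. With edgeR and TMM 9 of 23 passed, 8 lower and 1 higher, a peak in the BCL2L1 intron (0.59, edgeR adjusted p = 0.00227), where 21.9% of all peaks passed.

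**Figure D3:**
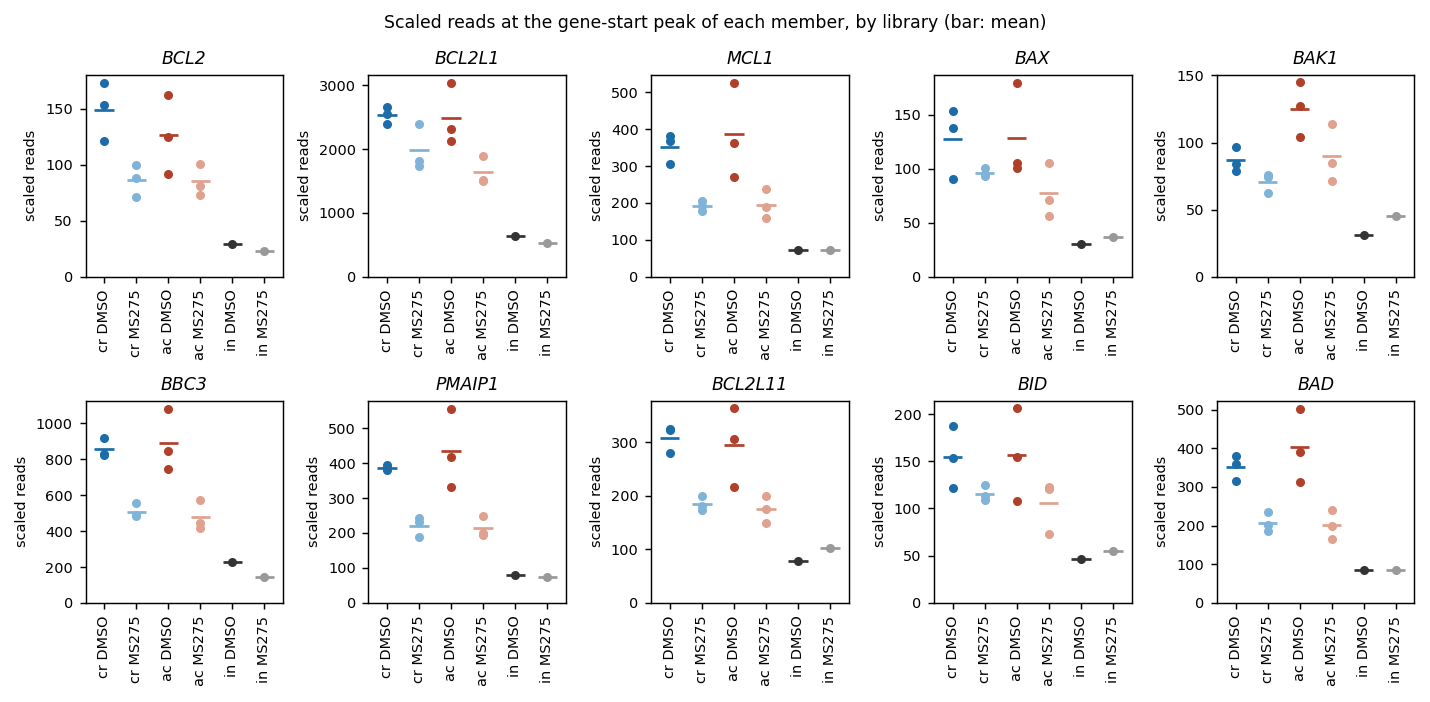
Scaled reads (y axis) in the start peak of each gene in every HCT116 ChIP and input library, for H3K18cr (cr), H3K18ac (ac) and input (in) in DMSO and MS275, with a bar at the mean. For BBC3, MCL1, PMAIP1, BCL2L11 and BAD the MS275 points lie below all DMSO points in both marks, and the BBC3 input is also lower in MS275 (144 against 228 scaled reads).

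No member peak passed the test of a difference between the marks in their response. The difference of the log2 changes, H3K18ac minus H3K18cr, ranged from -0.36 (BAX) to 0.24 (BCL2) over the 10 start peaks, with a median of -0.18. At BBC3 it was -0.14 with a 95% interval of -0.68 to 0.40, and at PMAIP1 -0.19 with -0.77 to 0.39, so a larger fall in either mark remains possible at these starts. In limma 0 of 23 member peaks passed and 0 had an unadjusted p under 0.05, where 0% of all 39080 peaks passed and 689 had an unadjusted p under 0.05.

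The inputs, 1 library per treatment, were counted over the same peaks. At the start peak of BBC3 the input held 175 reads in DMSO and 102 in MS275, a scaled ratio of 0.63 with a 95% exact interval of 0.49 to 0.81 that covers counting error only. The BBC3 input moved by -0.66 on the log2 scale, at percentile 9.71 of all peaks, where the 5th and 95th percentiles were -0.88 and 0.83 and the median -0.05, and where those of peaks at coding starts were -0.72 and 0.59. With this subtracted the change at BBC3 was -0.09 in H3K18cr and -0.23 in H3K18ac, and its part in the result was not tested. At the other starts except BCL2L1 the interval of the input ratio held 1, on 16 to 73 reads per library, so their input changes were within counting error. With the input change subtracted MCL1 was at -0.83 and -0.91, PMAIP1 at -0.73 and -0.92, BAD at -0.76 and -0.99 and BCL2L11 at -1.14 in both marks, in the order H3K18cr and H3K18ac. BAX moved from -0.37 and -0.73 to -0.66 and -1.03, BAK1 from -0.29 and -0.49 to -0.82 and -1.03, and BID from -0.39 and -0.56 to -0.63 and -0.79, and BCL2 from -0.79 and -0.55 to -0.45 and -0.21. The subtracted values have no replicate and no test. BCL2L1 came to -0.11 and -0.35, and its input was also lower (484 and 374 reads, ratio 0.84, interval 0.73 to 0.96).

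Set side by side, RNA and marks gave no single pattern in the family. BBC3 was lower in RNA with the block, a call lost without pair 1 or 2, and lower in both marks before the input change was subtracted. BID was lower in RNA with the block but passed in neither mark with all libraries. Its start peak passed in H3K18cr without DMSO replicate 3 (-0.55, limma adjusted p = 0.00897) and in H3K18ac without DMSO replicate 1 (-0.80, limma adjusted p = 0.0132). MCL1, PMAIP1, BCL2L11 and BAD were lower in both marks at their starts, at log2 changes of -0.74 to -1.0, while their RNA moved by 0.15, 0.09, 0.37 and -0.14 and did not pass. The H3K18ac calls of BBC3 and of these 4 genes were all lost without MS275 replicate 2 (limma adjusted p from 0.0735 for PMAIP1 to 0.275 for BCL2L11), with log2 changes of -0.80 for BBC3, -0.82 for MCL1, -0.93 for PMAIP1, -0.63 for BCL2L11 and -0.86 for BAD.

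In the mouse colon epithelium the order of the RNA levels was another one. Mcl1 came first at 108 ± 6.56 CPM per kb (SD, n = 3), with 112, 111 and 101 in the 3 libraries, followed by the effectors Bak1 at 55.4 ± 4.43 and Bax at 39.5 ± 4.29, none of which overlapped. Bad was at 12.9 ± 2.71 and Bcl2l1, first in HCT116, had rank 5 at 8.22 ± 1.39 CPM per kb. Bcl2 (5.03 ± 1.42), Bid (4.56 ± 0.430), Bbc3 (4.47 ± 0.644) and Pmaip1 (3.62 ± 0.828) overlapped from neighbour to neighbour, and Bcl2l11 was last at 1.46 ± 0.208. Bcl2, last in HCT116, was at percentile 53.8 of the colon genes with a count. Species, tissue and table differ between these orders, so they were not tested against each other. Ggnbp1 overlaps Bak1, Gpr137 overlaps Bad, Bcl2l13 and Gm17812 overlap Bid, D630008O14Rik overlaps Bcl2 and Gm45808 overlaps Bax. The shares of these neighbours in the counts cannot be told apart.

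All 10 genes also had a peak at their start in the colon, in both marks. In H3K18cr the log2 ratio of ChIP to input (scaled reads plus 1) at the starts had a median of 1.59 and a range of 1.19 to 2.37, where all 30338 peaks had a median of 1.31. Bcl2l1 was highest at 2.23 and 2.51 in the 2 replicates, a mean at percentile 99.4 of all peaks, and Bbc3 followed at 1.87 and 2.20. Bax was lowest at 1.08 and 1.29. Between replicates Bid differed the most, at 1.23 and 2.28, and its higher value lay above the lower one of Bcl2l1, so the order of neighbours was within the replicate spread. In HCT116 the BCL2L1 start lay under the widest peak of the family, and in the colon its start peak was 1350 bp wide.

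In H3K4me3, the textbook mark of active promoters, the same starts had a median log2 ratio of 2.82, ranging from 2.29 to 3.22, against 1.65 over all 27035 peaks. Mcl1 was highest with 2.47, 3.47 and 3.72, then Pmaip1 with 2.39, 3.38 and 3.63 and Bbc3 with 2.21, 3.14 and 3.69. Replicate 1 was the lowest library in each, by more than the genes differed from one another. Within each library Mcl1 was the highest of these 3, while Pmaip1 and Bbc3 changed order in replicate 3. These gaps were small and were not tested. Bax was lowest again at 1.69, 2.36 and 2.82. Bax, with rank 3 of the family in RNA, thus had the lowest mean ratio in both marks. Its replicates overlapped those of Bcl2l11, Bid and Bak1 in H3K18cr and those of every other member in H3K4me3. Bbc3, with rank 8 in RNA, had a mean among the highest 3 in both.

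**Figure D4:**
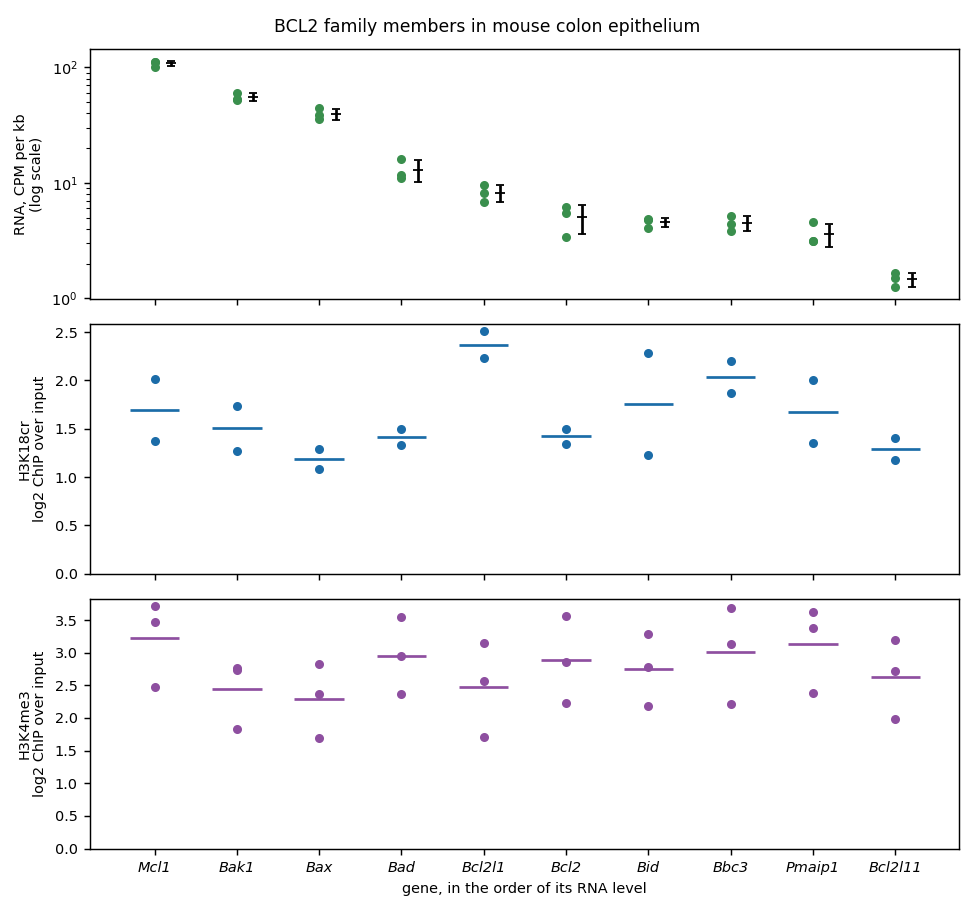
The 10 genes in mouse colon epithelium: RNA level in CPM per kb on a log axis (mean ± SD, n = 3) and the log2 ratio of ChIP to input at the start peak in H3K18cr (n = 2) and H3K4me3 (n = 3), with points for replicates and bars for the mean. Mcl1 RNA is highest at 108 CPM per kb, Bcl2l1 has the highest H3K18cr ratio (2.37) and Mcl1 the highest H3K4me3 ratio (3.22).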

How the data were processed

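The members and gene lists were chosen with earlier results of these data known. Per the file headers and the study's methods, the authors trimmed reads with Trim Galore, mapped them (Bowtie2 for ChIP; HiSat2 in the methods and TopHat2 in the submitters' processing notes for RNA) to GRCh38 or GRCm38 and quantified them in SeqMonk. The deposited RNA tables hold raw read counts per gene. The deposited peak tables hold a signal, reads per MACS peak that the authors multiplied by 1 factor per library, and 100% of the values gave whole reads back (tolerance 0.1 reads).

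RNA was tested with edgeR (4.0.16) quasi-likelihood after its filter on low counts and TMM scaling, DMSO against MS275, with DESeq2 (1.42.0) as an alternative. The log2 values of the peak signal were tested as deposited with limma (3.58.1, trend), leaving out peaks that averaged under 10 reads. The recovered reads were tested with edgeR and TMM and with DESeq2. All p-values were Benjamini-Hochberg adjusted over the whole table at 0.05. The difference between marks was an interaction term. Same-numbered RNA libraries deviated together (r = 0.226, 0.151, 0.433 and 0.460), but differently numbered libraries reached 0.239, above pairs 1 and 2. A fit blocked on the replicate number is given beside the unblocked one. The authors used a paired t-test for these marks over gene starts, but no source says that a number marks a shared culture. The p-values here therefore measure the spread between libraries. Levels per kb used merged GENCODE exon lengths and peaks were annotated with the same models. The genes named are the 10 members and genes of 3 pathway lists that passed with the block, and another list is not reported here. Fits without single pairs, without both RNA libraries numbered 3, and the subtraction of the input change were added after seeing the data. On simulated data with 100 genes changed 2.0-fold, edgeR recovered 98 without and 100 with the block (14961 genes), and limma recovered 86 of 100 peaks (39011 peaks). The spread in these simulations was set beforehand, and only the blocked RNA case had a replicate effect. Recovery in the real libraries may therefore be lower, above all without the block. The interaction recovered 94 of 100 at a 3.0-fold and 2 of 100 at a 1.5-fold difference.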

Additional observations from a re-analysis of the deposited data

Results flagged for a closer look

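With 4 libraries per group, 2 of 20 groups of RNA values of the members had 1 library far from the others, where chance gives about 1 in 20. BAK1 was at 42.1 CPM in DMSO replicate 3 and at 18.1 to 20.7 in the other DMSO libraries, a gap of 0.892 of the group's range, above Dixon's critical value. BAD was at 72.2 CPM in MS275 replicate 3 and at 24.2 to 31.8 in the other MS275 libraries, a gap of 0.842 of the range. Both values come from libraries numbered 3.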

How the results depend on the processing

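Without the block 1 RNA gene and 0 of 10 members passed. DESeq2 called 140 genes, no filter 13, and leaving out 1 library 0 to 1 (8 without both libraries numbered 3), with 0 members in each. With the replicate block 2151 genes and 2 members passed, and without pairs 1, 2, 3 and 4 of it 968, 994, 2584 and 1037 genes and 1, 1, 2 and 2 members. For H3K18cr 9335 peaks passed, against 5445 with TMM, 3340 with DESeq2, 5987 without the trend and 5969 to 12643 with 1 library left out (6 to 11 member peaks against 7). For H3K18ac 6685 peaks and 8 member peaks passed, against 5 member peaks without the trend and 1450 to 9342 peaks and 0 to 10 member peaks with 1 library left out. With the replicate block H3K18ac gave 921 peaks and 0 member peaks. With it H3K18cr gave 10690 peaks and 8 member peaks. The correlations of same-numbered ChIP libraries (0.113, 0.0799 and 0.248 for H3K18cr and -0.206, 0.0548 and -0.134 for H3K18ac) did not exceed 0.1 in every pair of a mark, so the numbers were not taken as pairs. Log2 changes of members near 0 changed sign with 1 library left out, and ranged from -0.44 to 0.08 for BAX, -0.39 to 0.23 for BAK1, -0.12 to 0.02 (also 0.01) for BCL2L1, -0.02 to 0.24 for PMAIP1 and -0.61 to 0.18 (also 0.03) for BAD, and with the block without pair 1 BAX 0.01 and PMAIP1 -0.004. The difference between marks at BBC3 ranged from -0.28 to 0.004, the latter without H3K18ac DMSO replicate 3. The causes were not tested. With 3 libraries per group limma recovered 15 of 100 simulated peaks changed 1.5-fold, so changes of that size can be missed.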

Other observations

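Beside the 1 start peak taken per gene, the family had 11 further H3K18cr peaks and 10 further H3K4me3 peaks in the colon, some of them at starts of neighbours (Ftl1, Ggnbp1, Gpr137) or near a start of Bcl2 or Bad, with median log2 ratios of ChIP to input of 1.28 and 1.48, against 1.31 and 1.65 over all peaks. Bcl2 had the most in H3K18cr, 4 intronic peaks between 1.03 and 1.65, of which 3 had their middle 123074 to 129224 bp downstream of the start. The peak at Ftl1 beside Bax had a higher H3K18cr ratio (1.63) than the start peak of Bax itself (1.19), and a higher H3K4me3 ratio as well (2.52 against 2.29), and the replicates of the 2 peaks overlapped in H3K4me3 but not in H3K18cr. No test was made.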
